A study of Mus musculus with 12 samples.

Results

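The 9 genes described here mark naive, quiescent T cells and were read across CD8 and CD4 T cells of mouse spleen cultures with and without linoleic acid. The genes were Tcf7, Lef1, Ccr7, Klf2, Satb1, Foxp1, Bach2, Tob1 and Btg2. A gene was read from the probe set whose only annotated symbol was that gene. Of the 9 listed genes, 8 had such a probe set, 1 each, among 22180 named genes, and all 8 were among the 14323 genes bright enough to be tested. Tcf7 was not analysed here.

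Linoleic acid, a polyunsaturated fatty acid, was given at 50 µM to mouse spleen cells for 24 h, control cultures received none, and the T cells were sorted afterwards. The 4 groups were CD8 T cells from linoleic acid cultures (labelled CD8 T-LA), CD8 T cells from control cultures (CD8 T-CTR), CD4 T cells from linoleic acid cultures (CD4 T-LA) and CD4 T cells from control cultures (CD4 T-CTR), with 3 arrays each, numbered 1 to 3. The study asked whether CD8 and CD4 T cells respond differently to the fatty acid. The strain, age and sex of the mice, and whether the 3 arrays of a group came from separate mice, are not given in the labels, so p-values measure the spread between these arrays, which may be technical. All values are log2 signal intensities of 1 probe set, as deposited, and levels are compared between groups for 1 gene at a time.

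Quiescence in naive T cells is an active state. Transcription factors hold the cell in a resting programme, homing receptors keep it circulating through lymph nodes, and RNA-binding partners of the deadenylase machinery shorten the tails of mRNAs that would otherwise drive growth. Antigen receptor signalling lowers most of these genes. Lef1 and Tcf7 encode the HMG-box factors LEF-1 and TCF-1. Klf2 encodes a zinc-finger factor that promotes quiescence and the trafficking receptor gene S1pr1, and Ccr7 encodes the chemokine receptor for entry into lymph nodes. Satb1 encodes a chromatin organiser of thymocytes and T cells, Foxp1 a forkhead factor that keeps naive T cells resting, and Bach2 a repressor of effector genes. Tob1 and Btg2 belong to the BTG/TOB family of anti-proliferative proteins, which recruit the CCR4-NOT deadenylase. A role of TOB1 in restraining T cell activation was first described in human cells.

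The sort was checked on the co-receptor genes. Cd8a averaged 11.06 ± 0.07 in CD8 linoleic acid arrays and 6.20 ± 1.03 in CD4 linoleic acid arrays, and 11.23 ± 0.06 in CD8 control and 5.999 ± 0.53 in CD4 control arrays (SD, n = 3 each). Cd4 averaged 5.76 ± 0.56 in CD8 and 10.95 ± 0.16 in CD4 arrays of the linoleic acid cultures. The mean of 10 T cell markers lay between 9.23 and 9.71 on the 12 arrays. B cell markers were also present: the mean of 13 of them was 5.79 to 6.25 on the arrays numbered 1 and 7.01 to 7.63 on those numbered 2 and 3, and Cd79a alone ranged from 8.10 to 10.67. Bach2, Foxp1, Klf2, Ccr7 and Btg2 are also expressed by B cells, and none of the measured genes is taken to be free of B cell RNA. In bulk samples such as these, fewer cells of a type and less RNA per cell cannot be told apart. Cpt1a, the fatty acid import enzyme of mitochondria, was picked because earlier results of these data showed it to move most with linoleic acid. It is therefore no separate check of the exposure. Its mean was 7.72 ± 0.52 in CD8 linoleic acid and 6.82 ± 0.11 in CD8 control arrays, and 8.01 ± 0.31 in CD4 linoleic acid and 6.67 ± 0.30 in CD4 control arrays. The pair of Cpt1a groups did not overlap in either cell type. Such a gap with linoleic acid higher was seen in 3.32% of all tested genes in CD8 and 2.92% in CD4 cells. The adjusted p by limma was 0.757 in CD8 and 0.845 in CD4 cells, or 0.0507 and 0.00335 with the array number added to the fit.

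In the linoleic acid cultures, Tob1 was lower in CD8 than in CD4 T cells and passed the test, and Satb1 and Bach2 were lower past the threshold once the array number was taken into account, a call that Bach2 lost in most fits with 1 array or number left out. Tob1 had 7.19, 6.65 and 6.07 in CD8 linoleic acid arrays 1, 2 and 3, against 8.11, 7.61 and 7.35 in CD4 linoleic acid arrays 1, 2 and 3. Every CD8 array lay below every CD4 array. The difference was -1.06 ± 0.24 on the log2 scale (SE, n = 3 each), a 2.08-fold lower intensity in CD8 cells, with an adjusted p of 0.0351 by limma with Benjamini-Hochberg adjustment over all tested genes. Tob1 stood at rank 246 of 14323 genes by p. It was the only one of the 8 genes past the adjusted threshold of 0.05, where 1.31% of all tested genes were called lower and 0.719% higher in CD8 cells.

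Satb1 had 9.03, 8.87 and 8.42 in CD8 linoleic acid arrays, against 9.40, 9.50 and 9.25 in CD4 linoleic acid arrays, and the groups did not overlap. The difference was -0.61 ± 0.16 (adjusted p = 0.0897 by limma). Bach2 had 8.24, 7.99 and 7.61 in CD8 linoleic acid arrays, against 8.57, 8.57 and 8.29 in CD4 linoleic acid arrays, again without overlap. Its difference was -0.53 ± 0.16 (adjusted p = 0.153). In these cultures arrays of the same number deviated together, with correlations of 0.58, 0.26 and 0.52 across genes, so the number was also fitted as a block. With that block the adjusted p was 0.000452 for Tob1, 0.00344 for Satb1 and 0.0167 for Bach2, and 3.79% of all tested genes were called lower and 1.78% higher in CD8 cells. With the block and 1 array or number left out, Bach2 did not pass in 7 of 9 settings (adjusted p = 0.0656 to 0.178), and Satb1 did not pass in 2 of 9, without the arrays numbered 2 (0.0773) or those numbered 3 (0.0753). Within numbers 1, 2 and 3 the Tob1 difference was -0.92, -0.96 and -1.28, that of Satb1 -0.37, -0.63 and -0.83, and that of Bach2 -0.33, -0.57 and -0.68.

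Foxp1 and Btg2 also had CD8 linoleic acid arrays wholly below the CD4 ones but did not pass the test. Foxp1 had 10.48, 10.36 and 10.27 in CD8 linoleic acid arrays, against 10.59, 10.61 and 10.49 in CD4 linoleic acid arrays, a difference of -0.19 ± 0.11 (adjusted p = 0.545). Btg2 had 8.17, 8.14 and 7.97 in CD8 linoleic acid arrays, against 8.43, 8.37 and 8.35 in CD4 linoleic acid arrays, a difference of -0.29 ± 0.16 (adjusted p = 0.520). That made 5 of 8 genes whose groups did not overlap with CD8 lower, where 8.98% of all tested genes were of that kind. Lef1 had 11.12, 10.88 and 10.21 in CD8 linoleic acid arrays, against 11.20, 11.03 and 10.72 in CD4 linoleic acid arrays, and its groups overlapped. The homing genes did not separate by cell type here: the difference was 0.04 for Ccr7, with a 95% interval of -0.20 to 0.27, and -0.00 for Klf2, with an interval of -0.64 to 0.63. The Klf2 value combined 0.28 and 0.26 for numbers 1 and 2 with -0.56 for number 3.

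**Figure D1:**
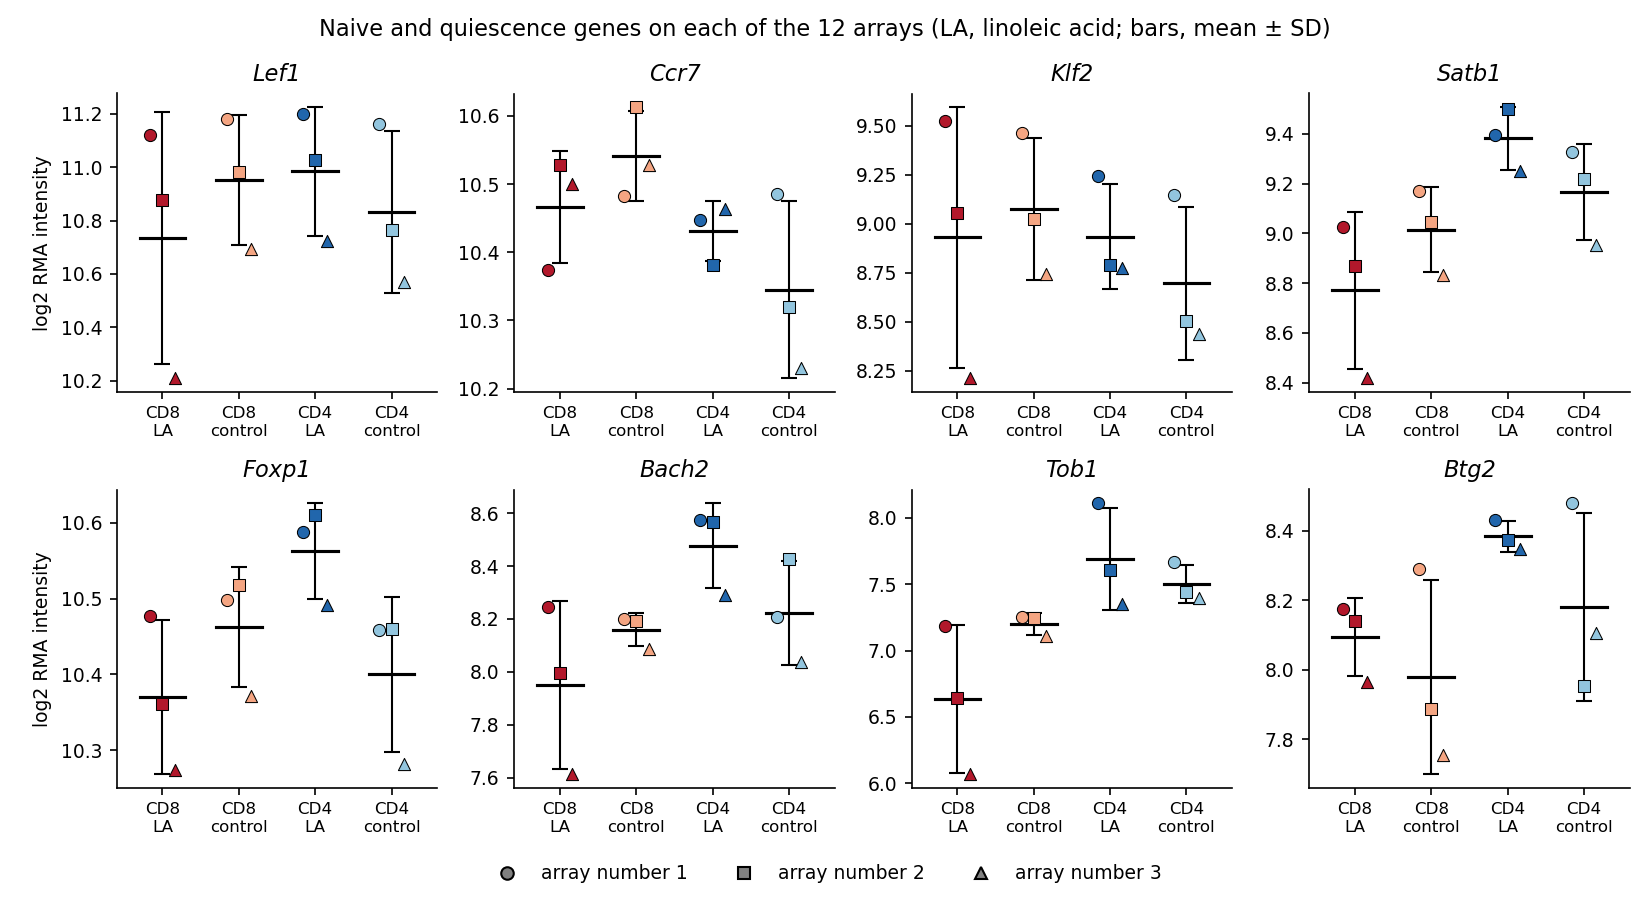
Log2 RMA intensity (vertical axis, a separate scale for each gene) of the 8 measured genes on each of the 12 arrays, by group; circles, squares and triangles are arrays numbered 1, 2 and 3, and bars give the mean ± SD of 3 arrays. For Tob1 the CD8 linoleic acid arrays reach no higher than 7.19 and the CD4 linoleic acid arrays no lower than 7.35.

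The 8 genes were bright genes, and bright genes leaned the same way. The median difference over the 8 was -0.27, with 7 of 8 below 0, while 54.1% of all tested genes and 68.7% of the 3479 tested genes at or above the mean of Tob1, the dimmest of the 8, were below 0. The median over those 3479 genes was -0.10. At all 3 numbers, 6 of 8 genes were lower in CD8 cells, against 24.9% of all tested genes and 42.2% of the 3479. The B cell markers moved in the same direction: 13 of 13 were lower in CD8 linoleic acid arrays, with a median of -0.48, and 7 of them passed with the block and none without it. In the control cultures too, where the median of the 8 genes was -0.00, 13 of 13 were lower in CD8 arrays, with a median of -0.32. None of these markers passed there without the block, and 4 did with it. With the block 3.79% of all tested genes were called lower in linoleic acid and 2.09% in control cultures. The B cell marker mean differed between CD8 and CD4 by -0.46, -0.49 and -0.50 within numbers 1, 2 and 3 of the linoleic acid cultures. Of 10 T cell markers 7 were below 0 there (median -0.20). Without the block Cd5 (-0.82, adjusted p = 0.0456 by limma) and Cd28 (-0.68, adjusted p = 0.0425) were called lower. Thy1 was called higher (0.87, adjusted p = 0.0183). The part of B cell RNA in the Tob1, Satb1 and Bach2 differences was not tested. CD8 linoleic acid array 3 held the lowest of the 12 values for 6 of the 8 genes, the lowest T cell marker mean (9.23) and the highest mean of 1392 olfactory and vomeronasal (chemosensory) receptor genes (3.46, against 2.99 to 3.41 on the other arrays). Without it the Tob1 difference was -0.77 (adjusted p = 0.111), and with the block as well it was -0.86 (adjusted p = 0.00474).

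The promoter windows of the genes that separated CD8 from CD4 cells, and of Btg2, the relative of Tob1 that did not pass, are shown to let their composition be compared. Each is the 250 bases before an annotated start, 5′ to 3′ on the strand of the gene, from the RefSeq promoter table (GRCm38.p6). Capitals mark exact matches on either strand to 7 short motifs: forkhead GTAAACA, TCF/LEF CTTTGA, KLF CCACACCC, AP-1/BACH core TGAGTCA, CRE TGACGTCA, TATAAA and CCAAT.
Tob1, chr11:94211204-94211453, plus strand: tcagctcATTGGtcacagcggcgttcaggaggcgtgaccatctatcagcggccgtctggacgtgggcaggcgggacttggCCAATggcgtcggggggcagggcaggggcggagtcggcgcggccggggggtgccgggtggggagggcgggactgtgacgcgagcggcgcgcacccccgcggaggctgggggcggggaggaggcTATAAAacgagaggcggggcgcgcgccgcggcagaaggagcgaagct
Btg2, chr1:134079156-134079405, minus strand: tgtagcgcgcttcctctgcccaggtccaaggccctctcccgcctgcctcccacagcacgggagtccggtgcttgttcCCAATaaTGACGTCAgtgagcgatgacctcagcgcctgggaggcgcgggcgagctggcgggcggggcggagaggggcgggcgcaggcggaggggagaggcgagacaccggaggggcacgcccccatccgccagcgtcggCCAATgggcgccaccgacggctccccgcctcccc
Bach2, chr4:32417185-32417434, plus strand: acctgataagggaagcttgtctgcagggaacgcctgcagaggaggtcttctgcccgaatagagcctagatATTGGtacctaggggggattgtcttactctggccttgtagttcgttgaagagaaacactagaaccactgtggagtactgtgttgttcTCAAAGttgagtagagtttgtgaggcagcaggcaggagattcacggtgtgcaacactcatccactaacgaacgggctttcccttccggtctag
Satb1, chr17:51833291-51833540, minus strand, the farthest upstream of its 5 starts in the table: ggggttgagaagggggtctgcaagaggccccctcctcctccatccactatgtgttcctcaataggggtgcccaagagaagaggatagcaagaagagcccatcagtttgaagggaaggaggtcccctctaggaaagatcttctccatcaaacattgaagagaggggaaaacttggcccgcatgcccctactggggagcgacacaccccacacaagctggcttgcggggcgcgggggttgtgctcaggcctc
The Tob1 window was 73.6% G or C, that of Btg2 73.2%, that of Satb1 58.0% and that of Bach2 50.4%, where the median of all 32851 windows was 52.4%. Tob1 alone of these windows held TATAAA, 47 bases before the start, a motif found in 12.4% of all windows. Btg2 held the CRE 166 bases before the start (1.55% of all windows) and CCAAT at 173 and 34 bases. Bach2 held a TCF/LEF match on the opposite strand 93 bases before the start (13.8% of all windows), and the printed Satb1 window held none of the 7. CCAAT, in 33.8% of all windows, also occurred in the Tob1 window at 243 and 170 bases and in the Bach2 window at 180 bases. A match here is a description of letters, not of binding. In all, 7 of the 8 measured genes had 16 windows in the table. The forkhead (3.17% of all windows), KLF (3.20%) and AP-1/BACH core (4.46%) motifs were in none of those 16.

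In the control cultures none of the 8 genes differed between CD8 and CD4 T cells past the threshold, by limma with or without the block. Same-numbered control arrays did not all deviate together, so block values there are given only beside those without it. Without the block 1.03% of all tested genes were called higher and 0.929% lower in CD8 cells, or 2.31% and 2.09% with it. None of the 8 genes had an unadjusted p under 0.05 without the block. With the block Klf2 had one of 0.0212 (adjusted p = 0.216 by limma). At an unadjusted p under 0.05 the shares of all tested genes were 4.98% higher and 4.39% lower, or 7.74% and 6.77% with the block. The 8 genes split evenly, 4 above and 4 below 0, with a median of -0.00. Tob1 had 7.25, 7.24 and 7.11 in CD8 control arrays, against 7.67, 7.44 and 7.39 in CD4 control arrays. The groups did not overlap, as for 7.53% of all tested genes in that direction. The difference was -0.30 ± 0.24 with a 95% interval of -0.81 to 0.21 (adjusted p = 0.836).

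Satb1 and Bach2 lay close together in the control cultures. Satb1 had 9.17, 9.04 and 8.83 in CD8 control arrays, against 9.33, 9.22 and 8.95 in CD4 control arrays, a difference of -0.15 with an interval of -0.50 to 0.20. Bach2 had 8.20, 8.19 and 8.09 in CD8 control arrays, against 8.21, 8.43 and 8.04 in CD4 control arrays, a difference of -0.06 with an interval of -0.41 to 0.28. The trafficking genes had their higher values in CD8 cells. Klf2 had 9.46, 9.02 and 8.74 in CD8 control arrays, against 9.15, 8.51 and 8.44 in CD4 control arrays, a difference of 0.38 ± 0.29 (adjusted p = 0.825). Ccr7 had 10.48, 10.61 and 10.53 in CD8 control arrays, against 10.49, 10.32 and 10.23 in CD4 control arrays, a difference of 0.20 ± 0.11 (adjusted p = 0.671). Both pairs of groups overlapped. Lef1 (0.12), Foxp1 (0.06) and Btg2 (-0.20) also had intervals that covered 0.

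**Figure D2:**
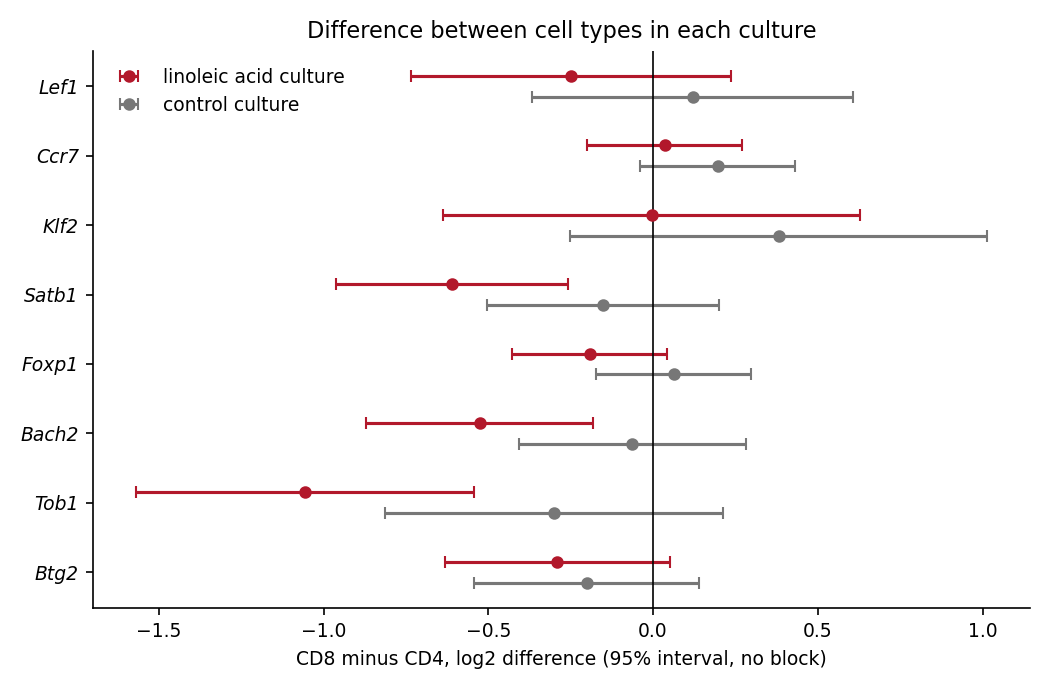
Difference between CD8 and CD4 T cells (horizontal axis, log2) for each gene in linoleic acid and control cultures, with 95% intervals from the fit without a block. The linoleic acid intervals of Tob1, Satb1 and Bach2 lie below 0, and all 8 control intervals cover 0.

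Linoleic acid changed none of the 8 genes past the threshold in either cell type. In CD8 T cells 7 of 8 were lower with linoleic acid, with a median of -0.18, and no gene of all 14323 was called in either direction (0% each way), with 728 at an unadjusted p under 0.05, 2.72% of all genes being lower ones. Tob1 had 7.19, 6.65 and 6.07 in CD8 linoleic acid arrays, against 7.25, 7.24 and 7.11 in CD8 control arrays. The spread was wide in the linoleic acid arrays and narrow in the controls, and the groups overlapped. The difference was -0.57 ± 0.24 (unadjusted p = 0.0327, adjusted p = 0.757 by limma), and it was -0.06, -0.60 and -1.04 within numbers 1, 2 and 3. The other differences in CD8 cells were -0.24 for Satb1, -0.22 for Lef1, -0.21 for Bach2, -0.15 for Klf2, -0.09 for Foxp1, -0.07 for Ccr7 and 0.12 for Btg2. Of all tested genes 63.1% were below 0 in this comparison, and of the 3479 bright ones 84.4%, with a median of -0.12. Quantile normalization of the deposited values brought the median of the 8 genes to -0.09. CD8 linoleic acid array 3 carried much of these values. Without it the difference was -0.28 for Tob1, -0.07 for Satb1, -0.04 for Bach2, -0.04 for Foxp1, 0.05 for Lef1 and 0.21 for Klf2, and the median of the 8 was -0.04 with 5 below 0.

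Cell type marker lists were read in the same comparison of CD8 linoleic acid and CD8 control arrays. All 10 T cell markers were below 0 (median -0.12), with list means that differed by -0.02, -0.14 and -0.21 within numbers 1, 2 and 3. Of the 3479 bright genes 84.4% were below 0 as well, with the same median of -0.12. Above 0 were 36.9% of all tested genes and 15.6% of the bright ones. Of the myeloid markers 12 of 12 were above 0 (median 0.13), with mean differences of -0.01, 0.30 and 0.31 within the numbers, and of the dendritic cell markers 6 of 7 (median 0.23). The B cell markers were above 0 in 9 of 13 (median 0.10). Of the tested NK cell markers 1 of 3 was above 0 (median -0.02), and of the platelet and erythroid markers 2 of 2 (median 0.18). The mean of the chemosensory receptor genes was higher by 0.12, 0.25 and 0.13 within numbers 1, 2 and 3. None of these markers passed the adjusted threshold, and their part in the differences of the 8 genes was not tested.

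In CD4 T cells all 8 genes had a higher mean with linoleic acid, by 0.09 to 0.25 with a median of 0.20, and none passed the test (adjusted p = 0.9998 for each). Here 48.6% of all tested genes and 52.9% of the 3479 bright ones were above 0, and no gene was called in either direction (0%), with 373 at an unadjusted p under 0.05 (0.768% higher and 1.84% lower). Of the 8 genes 5, Lef1, Klf2, Satb1, Foxp1 and Bach2, were above 0 at all 3 numbers, as were 13.5% of all tested genes and 18.2% of the 3479. Foxp1 was the only gene whose groups did not overlap, with 10.59, 10.61 and 10.49 in CD4 linoleic acid arrays, against 10.46, 10.46 and 10.28 in CD4 control arrays. Such a gap with linoleic acid higher was seen in 2.92% of all tested genes. The Foxp1 difference was 0.16 ± 0.11, with a 95% interval of -0.07 to 0.40. Bach2 had the largest mean difference of the 8, 0.25 ± 0.16, with 8.57, 8.57 and 8.29 in CD4 linoleic acid arrays, against 8.21, 8.43 and 8.04 in CD4 control arrays. The B cell marker mean was higher with linoleic acid too, by 0.03, 0.16 and 0.26 within numbers 1, 2 and 3, while the T cell marker mean differed by -0.01, 0.05 and -0.07. What part B cell RNA had in the Bach2 or Foxp1 values was not tested.

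The direct test of the study's question, the response of CD4 cells minus that of CD8 cells, called no gene. All 8 genes lay above 0, with a median of 0.38, and all 8 did so at each of the 3 numbers. Of all tested genes 57.1%, and of the 3479 bright genes 72.8%, were above 0, and 19.4% of all and 31.1% of the bright genes were so at every number. The median of the bright genes was 0.12. No gene of all 14323 passed the adjusted threshold in either direction (0%), with 336 at an unadjusted p under 0.05 (0.929% higher in CD4 cells). Tob1 had a difference of 0.76 ± 0.34, with a 95% interval of 0.03 to 1.48 (unadjusted p = 0.0419, adjusted p = 0.953 by limma). Bach2 and Satb1 each had a difference of 0.46, with intervals of -0.02 to 0.95 for Bach2 and -0.04 to 0.96 for Satb1. Klf2 (0.39), Lef1 (0.37), Foxp1 (0.25), Ccr7 (0.16) and Btg2 (0.09) followed. Without CD8 linoleic acid array 3 the response difference was 0.47 for Tob1, 0.29 for Bach2, 0.28 for Satb1, 0.11 for Lef1, 0.03 for Klf2 and 0.03 for Btg2, and the median of the 8 was 0.19. This contrast uses the same 12 arrays as the comparisons above and adds no separate evidence to them.

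**Figure D3:**
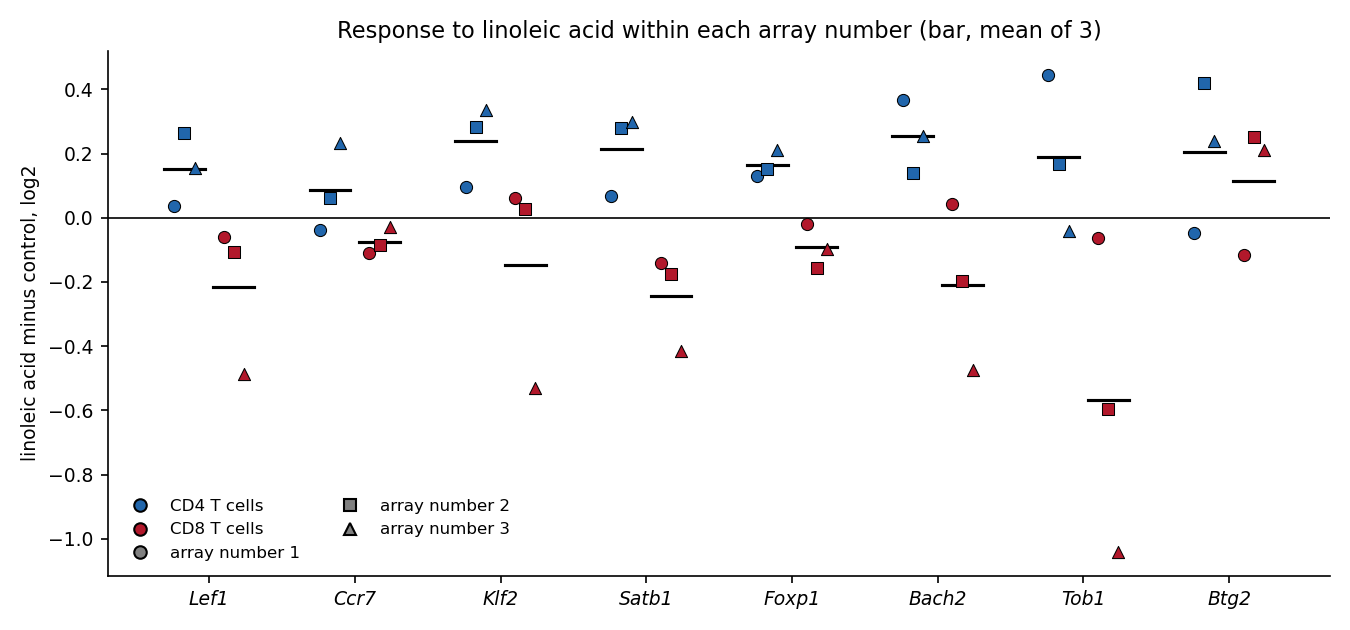
Linoleic acid minus control (vertical axis, log2) within each array number for CD4 (blue) and CD8 (red) T cells; bars are means of 3 numbers. Tob1 in CD8 cells spans -0.06 to -1.04, and all 8 means in CD4 cells are above 0.

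**Figure D4:**
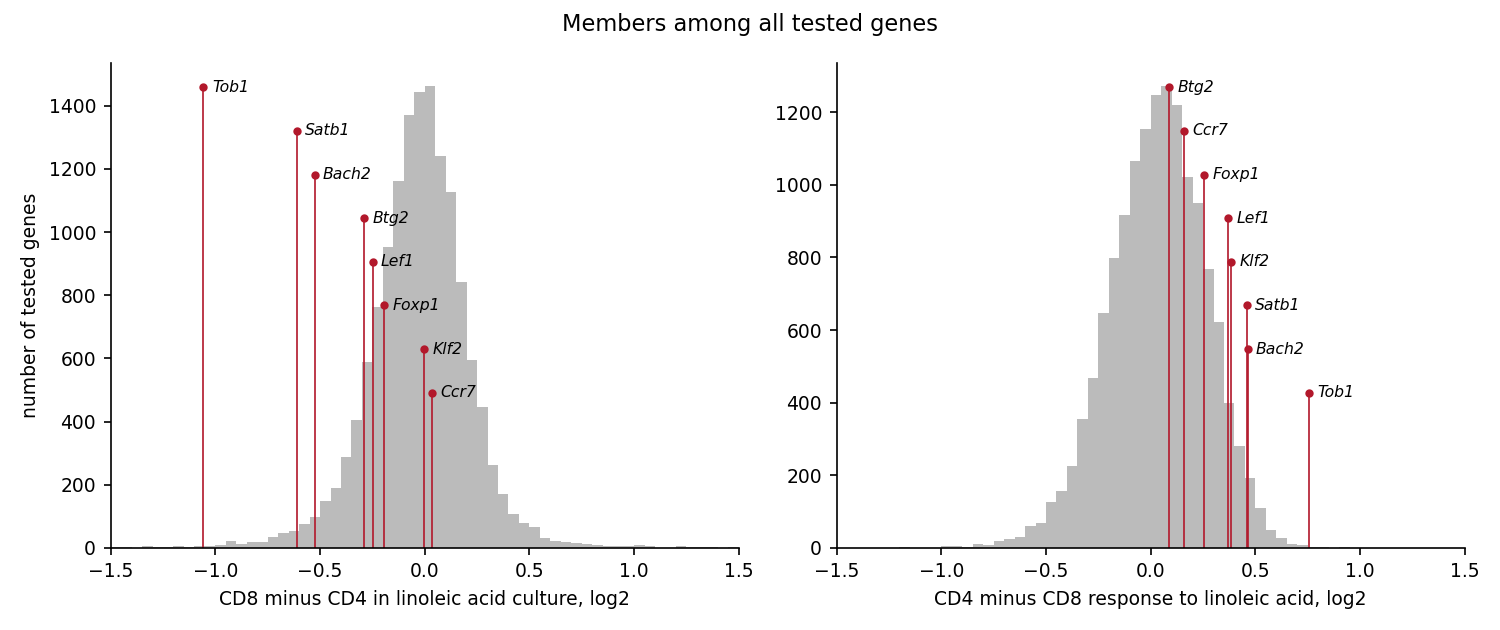
Histograms of the log2 difference over all 14323 tested genes (vertical axis, number of genes; values beyond 1.5 in either direction are not drawn), with the 8 genes as red lines whose heights only separate the labels. Tob1 is at -1.06 in the CD8 minus CD4 comparison of linoleic acid cultures and at 0.76 in the CD4 minus CD8 response.

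The order of the 4 groups was not the same for every gene. Lef1, Satb1, Foxp1, Bach2, Tob1 and Btg2 all had their highest mean in CD4 linoleic acid arrays, and Lef1, Satb1, Foxp1, Bach2 and Tob1 their lowest in CD8 linoleic acid arrays. The Tob1 means were 6.63 ± 0.56 in CD8 linoleic acid, 7.20 ± 0.08 in CD8 control, 7.69 ± 0.39 in CD4 linoleic acid and 7.501 ± 0.15 in CD4 control arrays (SD, n = 3 each). Among neighbours in that order, only the step between the lowest group and the next exceeded the pooled SD of 0.35. For Lef1 and Klf2 no step between neighbours exceeded the pooled SD, which was 0.33 for Lef1 and 0.45 for Klf2. Ccr7 and Klf2 had their highest mean in CD8 control arrays (10.54 ± 0.07 for Ccr7 and 9.08 ± 0.36 for Klf2) and their lowest in CD4 control arrays (10.34 ± 0.13 for Ccr7 and 8.70 ± 0.39 for Klf2). The 12 Ccr7 values covered only 0.38.

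The array number left a mark on most of these genes. Array 1 was the highest of its group in 4 of 4 groups for Lef1, Klf2, Tob1 and Btg2, and array 3 the lowest in 4 of 4 groups for Lef1, Klf2, Satb1, Foxp1, Bach2 and Tob1. Klf2 gave the widest contrast, with 9.52 and 8.21 on CD8 linoleic acid arrays 1 and 3, 9.46 and 8.74 on CD8 control arrays 1 and 3, 9.24 and 8.77 on CD4 linoleic acid arrays 1 and 3, and 9.15 and 8.44 on CD4 control arrays 1 and 3. Its pooled SD was larger than that of 97.6% of tested genes, and that of Lef1 than 92.2%, while those of Ccr7 and Foxp1 were larger than only 2.95% and 3.29%. The arrays numbered 1 were also those with the lowest B cell marker means. What the number stands for is not given in the labels.

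**Figure D5:**
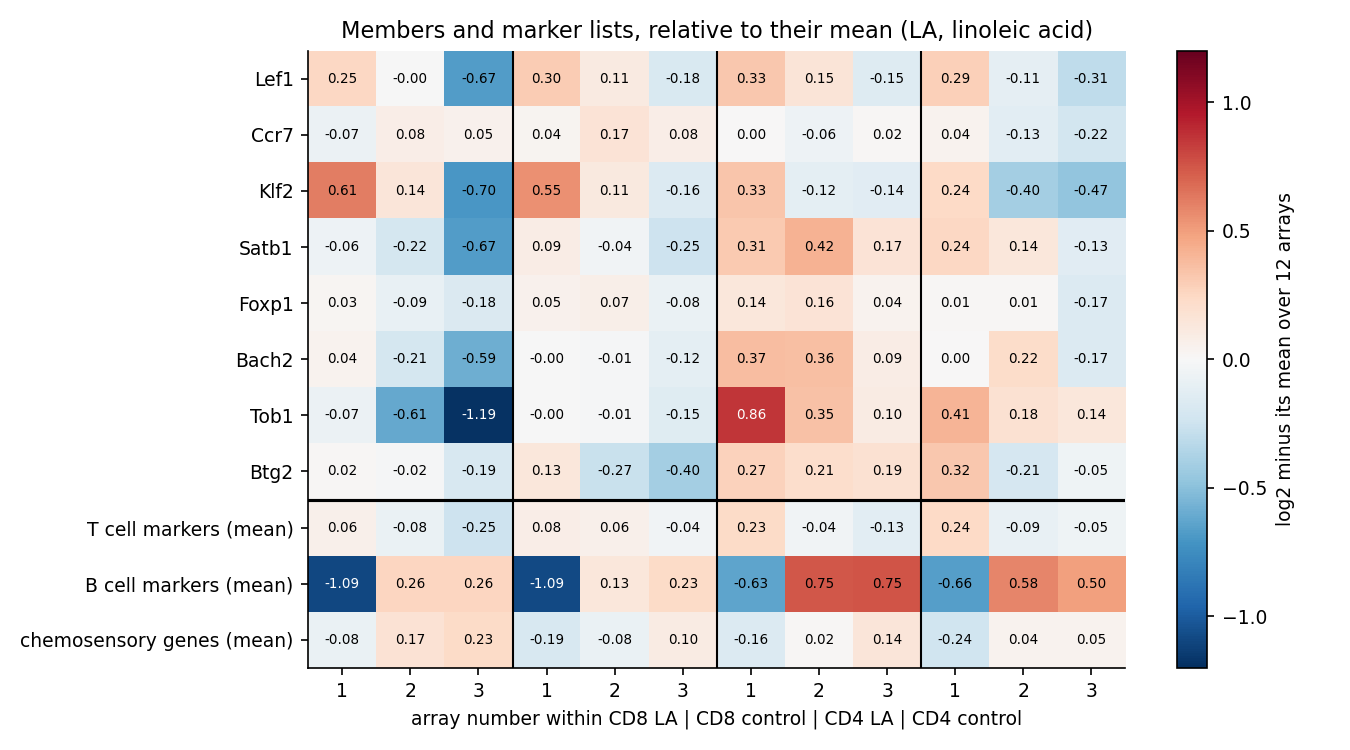
Log2 value minus its mean over 12 arrays for the 8 genes and for the means of T cell markers, B cell markers and chemosensory receptor genes (rows), by group and array number (columns). Red is above and blue below the mean; Tob1 is lowest (-1.19) on CD8 linoleic acid array 3, and the B cell row is below its mean on every array numbered 1.

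Among 30 other tested genes of naive and quiescent T cells, CD8 cells of the control cultures had 3 higher and none lower past the threshold. These were Bcl2, the survival factor (1.23 ± 0.20, adjusted p = 0.00297), Dapl1 (1.33 ± 0.26, adjusted p = 0.0145) and Vsir, the checkpoint receptor VISTA (0.62 ± 0.13, adjusted p = 0.0185). With the block the control count was 3 higher and 1 lower, the lower one being Runx1, a Runt-domain factor (-0.75 ± 0.18, adjusted p = 0.0534 without and 0.000314 with the block). Of all tested genes 1.03% were called higher and 0.929% lower in control cultures, or 2.31% and 2.09% with the block. In the linoleic acid cultures Dapl1 was higher (1.31 ± 0.26, adjusted p = 0.0171) and Runx1 lower (-1.001 ± 0.18, adjusted p = 0.00927) in CD8 cells. With the block the linoleic acid count was 2 higher and 5 lower, and it took in Cdkn1b, the cell cycle inhibitor p27 (-0.56, adjusted p = 0.00426), and St6gal1, a sialyltransferase (-0.54, adjusted p = 0.0124). The shares of all tested genes in linoleic acid cultures were 0.719% higher and 1.31% lower, or 1.78% and 3.79% with the block. The medians over the 30 were -0.23 in linoleic acid and 0.10 in control cultures. Their response to linoleic acid had a median of -0.21 in CD8 cells, with 29 of 30 below 0. Of all tested genes 63.1%, and of the 3479 bright ones 84.4%, were below 0 there too. In CD4 cells the median was 0.11, with 26 of 30 above 0, against 48.6% of all tested genes and 52.9% of the bright ones. None passed in either cell type, by limma with or without the block, and none had an unadjusted p under 0.05 without the block.

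Between CD8 and CD4 cells, the partners of Tob1 and Btg2 gave smaller differences than Tob1 in both cultures. In linoleic acid cultures some of them, such as Btg1, differed by more than Btg2 (-0.29). None of 14 tested BTG/TOB relatives and deadenylase subunits was called in any comparison. In the linoleic acid cultures 12 of 14 were below 0 in CD8 cells, with a median of -0.18. Of all tested genes 54.1%, and of the 3479 bright ones 68.7%, were below 0 there too, with a median of -0.10 for the bright ones. Btg1, which acts with Btg2 in mouse T cell quiescence, had the smallest p of the 14 (-0.40 ± 0.12, unadjusted p = 0.00505, adjusted p = 0.144). Tob2, the nearest relative of Tob1, had -0.30 ± 0.15 (adjusted p = 0.460). In the control cultures the median of the 14 was 0.03.

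For the partners of the transcription factors, few genes passed. Of 13 tested TCF/LEF relatives and cofactors none was called without the block. With the block Bcl9, a coactivator of beta-catenin, was lower in CD8 cells of linoleic acid cultures (-0.51, adjusted p = 0.361 without and 0.0276 with the block). Bcl9l, its close relative, was then higher in CD8 cells of control cultures (0.89, adjusted p = 0.412 without and 0.000256 with the block). With the block 3.79% of all tested genes were called lower in linoleic acid and 2.31% higher in control cultures. Of 12 tested genes of the FOXO1 and KLF2 axis, which controls T cell trafficking and survival, 11 were below 0 in CD8 cells of linoleic acid cultures with a median of -0.22. The shares below 0 there were 54.1% of all tested genes and 68.7% of the 3479 bright ones. Cdkn1b and Ccng2, the cyclin G2 gene and a FOXO target (-0.56, adjusted p = 0.0202), passed with the block, where 3.79% of all tested genes were called lower. S1pr1, the receptor gene downstream of KLF2, had -0.31 ± 0.15 (adjusted p = 0.448). Among 12 tested relatives of Klf2, Foxp1, Bach2 and Satb1, the single call was Foxp3, the factor of regulatory T cells, with -3.16 ± 0.16 in linoleic acid and -3.39 ± 0.16 in control cultures in CD8 minus CD4 cells (adjusted p = 1.33e-07 in linoleic acid and 6.65e-08 in control cultures).

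Some genes that mark effector, memory and activated T cells also differed between the cell types. Of 25 tested effector and memory genes 5 were higher and 2 lower in CD8 cells of linoleic acid cultures, and 4 were higher and 4 lower in control cultures. Of all tested genes 0.719% were called higher and 1.31% lower in linoleic acid, and 1.03% and 0.929% in control cultures. With the block the effector counts were 5 higher and 4 lower in linoleic acid and 5 higher and 7 lower in control cultures. The shares of all tested genes were then 1.78% higher and 3.79% lower in linoleic acid, and 2.31% and 2.09% in control cultures. The medians over the 25 were 0.09 in linoleic acid and -0.08 in control cultures. The chemokine gene Ccl5 differed by 2.42 ± 0.15 in linoleic acid and 2.49 ± 0.15 in control cultures, Nkg7 of cytotoxic granules by 2.85 ± 0.21 and 2.68 ± 0.21 in the same order, and Maf, a factor of helper T cells, by -1.31 ± 0.19 and -1.37 ± 0.19. Of 14 tested early activation genes 3 were lower in CD8 cells in both cultures: Il2ra, the high-affinity interleukin-2 receptor chain (-2.35 ± 0.16 in linoleic acid culture), and the costimulatory receptors Tnfrsf4 (-1.96 ± 0.15) and Tnfrsf9 (-1.75 ± 0.30). Foxp3, the factor of regulatory T cells, was also lower in CD8 cells (-3.16 in linoleic acid culture). The part of regulatory T cells in the differences of these activation genes was not tested. Myc, a driver of cell growth, was higher in CD8 cells of control cultures (0.74 ± 0.15, adjusted p = 0.0177). With the block 6 of the 14 were lower in linoleic acid cultures, and 5 were lower and 1 higher in control cultures.

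None of these effector or activation genes was called for linoleic acid in either cell type, by limma with or without the block. At an unadjusted p under 0.05 in the fit without the block there was 1 of the 25 effector genes in each cell type, and there were 2 for the CD4 minus CD8 response. Of the 14 activation genes 3 had such a p in CD4 cells, Egr2 (0.37), Nr4a1 (0.71) and Tnfrsf4 (-0.34), with none in CD8 cells and none for the response. Of all tested genes 0.768% were higher and 1.84% lower at such a p in CD4 cells, and 2.36% and 2.72% in CD8 cells. For the response the shares were 0.929% higher and 1.42% lower. With lists this short, the counts in CD4 and CD8 cells are not read as a difference between them.

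Across the 12 arrays the 8 genes fell into patterns that overlapped only in part. Satb1 correlated with Bach2 at 0.94 and with Tob1 at 0.90 (Pearson r), and Bach2 with Tob1 at 0.89, while Lef1 was most like Klf2 at 0.89. Ccr7 stood apart, with r between -0.31 and 0.27 against the other genes. The tested gene most like each was Ints6 for Tob1 (0.97), Rbms1 for Satb1 (0.97), Gas8 for Bach2 (0.96), BC005537 for Lef1 (0.99), Asap1 for Klf2 (0.97), Fam193a for Foxp1 (0.95), Tert for Btg2 (0.93) and Cox8a for Ccr7 (0.87). These values are descriptions over 12 arrays that share 4 groups and 3 array numbers, and so the number itself contributes to them.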

How the data were processed

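RNA of 12 sorted T cell samples, 3 in each of 4 groups, was measured on Affymetrix MoGene-2_0-st arrays. The deposited values are log2 intensities of 41345 probe sets, made by the authors with RMA per the submitters' processing notes. No source used here names the software or annotation build. Array medians were 4.66 to 4.80. Arrays give no counts, and the number of arrays limits precision.

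Of the probe sets 23521 had 1 annotated symbol, 1814 several and 16010 none; 23328 of the single-symbol ones matched RefSeq by Entrez ID, and no symbol changed. For a gene with several probe sets the brightest stood for it. Genes with a mean at or above the 40th percentile of probe sets (log2 4.28) were tested, which left 14323. All 12 arrays entered 1 limma fit (lmFit and eBayes, limma 3.58.1, R 4.3.3) with a mean for each of 4 groups, 8 residual and 5.67 prior degrees of freedom, two-sided tests and Benjamini-Hochberg adjustment over all tested genes at 0.05. Intervals are 95%. A second fit added the array number of the labels as a block, with the same number effects for all 4 groups. Same-numbered arrays deviated together, with every correlation over 0.1, in the linoleic acid comparison of cell types (0.26 to 0.58) and in both treatment comparisons, but not in the control cultures (-0.01 to 0.54), where the numbers are not taken to pair the arrays. Block results for the control cultures are therefore given only beside those of the fit without it.

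The code of the fit was run on simulated arrays with independent noise and no effect of the array number. It cannot show how the fit handles the shared deviations of same-numbered arrays. Alternatives were other filters, scalings, probe set rules, variance models and left-out arrays; the block combined with left-out arrays was added after seeing the data. Genes other than the 8 were named by their p within a list (up to 4 per list and comparison), or as the most correlated gene. The genes and lists were chosen with earlier results of these data known, and the TATAAA and CCAAT motifs after the promoter windows had been read. Cell type markers came from fixed lists; of 15 B cell markers 13 had a probe set and of 13 T cell markers 10. Mean levels of the other marker lists lay between 4.14 and 5.87 on every array.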

Additional observations from a re-analysis of the deposited data

Results flagged for a closer look

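In Lef1, Satb1 and Foxp1 every array number was higher with linoleic acid in CD4 cells and lower in CD8 cells. The CD4 minus CD8 difference in response was 0.37 ± 0.32 for Lef1, 0.46 ± 0.23 for Satb1 and 0.25 ± 0.16 for Foxp1 (SE, n = 3 arrays a group). The test of the difference itself gave an adjusted p of 0.953 by limma for each of the 3 genes, and 0.600 to 0.634 with the array number as a block, so none of them passed. Within numbers 1, 2 and 3 the difference was 0.10, 0.37 and 0.64 for Lef1, 0.21, 0.46 and 0.71 for Satb1 and 0.15, 0.31 and 0.31 for Foxp1. Of all tested genes 3.67%, and of the 3479 at or above the mean of Tob1 8.28%, were likewise higher in CD4 and lower in CD8 cells at every number.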

How the results depend on the processing

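Among the 3 lower genes of the linoleic acid cultures, Tob1 kept its direction under every alternative run and lost its call under some of those without a block. Its adjusted p was 0.0535 with no filter on low values and 0.209 with only the 2 groups compared in the fit. With 1 array or number left out the difference ran between -1.33 and -0.77 and the adjusted p between 0.00431 and 0.607; the call was lost without CD4 linoleic acid array 1 (0.155) or 2 (0.111), without CD8 linoleic acid array 2 (0.112) or 3 (0.111), and without all arrays numbered 2 (0.607) or 3 (0.118). With the block the same settings gave 0.000235 to 0.00714. Satb1 and Bach2 also passed without CD8 linoleic acid array 1 and no block (0.0402 and 0.0453). With the block and left-out arrays Satb1 ran between 0.00494 and 0.0773 and Bach2 between 0.00658 and 0.178. The count of the 8 genes called in linoleic acid culture was 1, and it was 3 with the block, 0 with no filter, 0 with only the groups compared, 0 to 3 with arrays left out and 1 to 3 with both. Over all genes the linoleic acid culture count of 291 became 798 with the block, 138 with only the groups compared, 62 to 322 with arrays left out and 329 to 839 with both. For control culture 280 became 630 with the block, 65 to 230 with arrays left out and 329 to 479 with both. For linoleic acid against control, 0 became 1 with the block in either cell type (0 to 1 in CD4 and 0 to 0 in CD8 cells with arrays left out, 1 to 5 in CD4 and 0 to 10 in CD8 cells with both), and for the CD4 minus CD8 response 0 to 0, and 0 to 1 with both. The block changed no other call of the 8 genes. Quantile normalization turned the Klf2 difference in linoleic acid culture to 0.068. Leaving out arrays reversed 9 values that had not passed. In linoleic acid culture these were Klf2 (-0.30 to 0.35), Lef1 (-0.44 to 0.014) and Ccr7 (-0.019 to 0.091), and in control culture Bach2 (-0.16 to 0.039) and Lef1 (-0.012 to 0.29). For linoleic acid they were Klf2 (-0.44 to 0.21) and Lef1 (-0.41 to 0.047) in CD8 cells and Tob1 (-0.020 to 0.36) in CD4 cells, and for the response Btg2 (-0.067 to 0.24). With the block those ranges were -0.15 to 0.27 for Klf2 and -0.019 to 0.099 for Ccr7 in linoleic acid culture, -0.14 to 0.023 for Bach2 in control culture, -0.27 to 0.086 for Klf2 in CD8 cells and -0.015 to 0.18 for Btg2 in the response. The causes were not tested. With 3 arrays a group, differences of the size seen for linoleic acid in these genes were not resolved.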
